A study of Homo sapiens with 8 samples.

Results

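The genes of the origin recognition complex (ORC) and of its partners in loading the replicative helicase were described across 4 ATAC-seq peak lists. The 10 genes were chosen by name for their function: ORC1, ORC2, ORC3, ORC4, ORC5, ORC6, CDC6, CDT1, GMNN and LRWD1, out of 19974 protein-coding genes on chromosomes 1 to 22 and X. Each was taken with 20 kb on each side of its RefSeq span (GRCh38), and all peaks in that window were used. The 10 windows, which share no base, held 43 merged regions (peaks of the 4 lists joined where they overlapped or touched), of 129052 in all. ATAC-seq marks open DNA by where a transposase can cut it. The cells were U2OS, an established human osteosarcoma line, under siGl3 (a control siRNA) or siOrc6 (an siRNA against ORC6) for 72 h. All cells, controls included, had a double-thymidine block and 3 h of release, a schedule meant to place them in early S phase. The cell-cycle position of the groups was not checked here. Under each siRNA, 1 condition was then given the oxidant H2O2 at 5 mM for 30 min and 1 was left untreated. Each of the 4 conditions had 2 libraries and 1 deposited peak list. No value per library exists in these lists, so no replicate error and no test of a condition can be given, and depth is unknown.

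ORC is a ring of subunits that marks replication origins on DNA. In G1, ORC and CDC6 recruit CDT1, which brings the MCM helicase, and the helicase is loaded onto DNA in an inactive form (licensing). Geminin, the product of GMNN, binds CDT1 in S and G2 phase and stops a second round of loading. ORC6 is the smallest subunit, and LRWD1 (also named ORCA) binds ORC and holds it on chromatin. Several of these genes are known targets of E2F, the transcription factor family of the G1 to S transition.

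By RefSeq (GRCh38) the genes span these places. ORC1 is on chromosome 1 (52372829 to 52409503, minus strand), ORC2 on chromosome 2 (200908977 to 200963660, minus) and ORC4 also on chromosome 2 (147930396 to 148021551, minus). ORC3 is on chromosome 6 (87590135 to 87677823, plus), with GMNN (24774937 to 24786099, plus). ORC5 is on chromosome 7 (104126341 to 104208013, minus), with LRWD1 (102464984 to 102473168, plus). ORC6 (46689659 to 46698394, plus) and CDT1 (88803789 to 88809258, plus) are on chromosome 16, and CDC6 (40287879 to 40304657, plus) on chromosome 17.

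The stretches just before the annotated starts of 5 of the genes are shown because the start peaks described here lie over or beside them and because they hold some of the E2F and CCAAT matches and both genes' NRF1 matches counted further on. They come from RefSeq (GRCh38.p14), in which all 10 genes had an entry, and are printed 5′ to 3′ on the gene's strand. Capitals mark matches, on either strand, to E2F (TTTGGCGC, TTTCCCGC, TTTGCCGC, TTTCGCGC, or the shorter TTGGCGC or TTCCCGC), to the CCAAT box (CCAAT) and to NRF1 (GCATGCGC). E2F and CCAAT matches can share bases, as in ORC1, and an NRF1 match and its reverse complement overlap in CDT1 and ORC6. CDT1, chr16:88803539-88803788, plus strand, and CDC6, chr17:40287629-40287878, plus strand, end at the base before the start. ORC6 is chr16:46689409-46689658, plus strand. ORC1, chr1:52404424-52404593, minus strand, is given for the 170 bases before its start, cut short of PRPF38A. For GMNN only 30 bases before its second start are given, chr6:24775315-24775344, plus strand.
CDT1: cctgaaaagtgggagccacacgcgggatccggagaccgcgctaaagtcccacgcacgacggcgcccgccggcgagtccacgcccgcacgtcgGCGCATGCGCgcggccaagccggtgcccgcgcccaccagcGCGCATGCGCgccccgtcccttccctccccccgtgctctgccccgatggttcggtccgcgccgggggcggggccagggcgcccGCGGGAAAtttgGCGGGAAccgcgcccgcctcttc
CDC6: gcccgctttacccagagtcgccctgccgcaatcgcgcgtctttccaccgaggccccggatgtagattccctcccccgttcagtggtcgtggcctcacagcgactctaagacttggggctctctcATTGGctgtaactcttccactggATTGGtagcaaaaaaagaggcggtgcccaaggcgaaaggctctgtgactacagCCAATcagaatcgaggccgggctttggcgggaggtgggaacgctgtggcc
ORC1: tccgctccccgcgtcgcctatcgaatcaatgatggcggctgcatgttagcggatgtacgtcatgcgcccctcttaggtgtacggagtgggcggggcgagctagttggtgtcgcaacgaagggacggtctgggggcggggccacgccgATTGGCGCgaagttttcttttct
ORC6: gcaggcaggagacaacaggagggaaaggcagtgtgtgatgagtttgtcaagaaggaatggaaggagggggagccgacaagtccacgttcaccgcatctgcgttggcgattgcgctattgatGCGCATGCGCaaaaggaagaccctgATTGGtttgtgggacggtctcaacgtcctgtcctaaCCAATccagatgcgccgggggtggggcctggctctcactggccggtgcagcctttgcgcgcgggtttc
GMNN: cccATTGGctgggtcggtTTTGGCGCgctc

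The lists held between 97984 and 115439 peaks. Each peak carries a peak signal from the authors' caller, and the position of a peak is given here as its percentile by that signal within its own list. Percentiles of different lists are set side by side and are not a measure of change. Markers of the cell line and of other cells were also counted. Of 10 mesenchymal and bone genes, 8 had a peak within 1 kb of the annotated start in all 4 lists, among them RUNX2, COL1A1 and VIM. Where no start was known, a peak within 1 kb of either end was counted. TWIST1 and TGFBI had none. Of 10 genes of other cell types, 7 had no such peak in any list, and CD3E, EPCAM and KRT8 had one in all 4. Over all genes with a known start, 68.3% had a start peak in all 4 lists. The count of 8 includes COL1A1 and COL1A2, which have no known start and were counted by either end. It is near that share and alone does not identify the line. For the rule of either end, used more often in the second set, no share over all genes is given here.

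Every gene of the loading machinery had an open start. All 10 had a peak within 1 kb of an annotated start in each of the 4 lists, against 68.3% of the 15812 protein-coding genes with a known start (10805 genes). In all 40 combinations of gene and list the strongest of these peaks covered a start. Where genes had such a peak, the strongest one stood at a median percentile between 88.97 and 90.2 over all genes and between 91.7 and 93.2 over the 10. The median width of the 10 start peaks lay between 1383 and 1473 bp in the 4 lists, and that of all genes between 1156 and 1289 bp. At equal signal per base, peak signal is higher in a wider peak. By peak signal, the order of the 10 by median percentile over lists, from the top, was ORC6, CDC6, ORC2, ORC1, ORC4, GMNN, LRWD1, ORC3, CDT1 and ORC5. The ranges over the 4 lists of neighbours in this order overlap, except that ORC6 stays above CDC6, GMNN above LRWD1 and LRWD1 above ORC3. The order below the top depends on the ranking used. ORC6 was highest in all 4 lists also by the authors' −log10 p-value and by signal per base. By −log10 p-value CDT1 was lowest in all 4 lists. By signal per base LRWD1, at the 68.7, 48.7, 66.8 and 61.2 percentiles (untreated siGl3, untreated siOrc6, siGl3 with H2O2, siOrc6 with H2O2), was below ORC3 in all 4 lists.

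**Figure D1:**
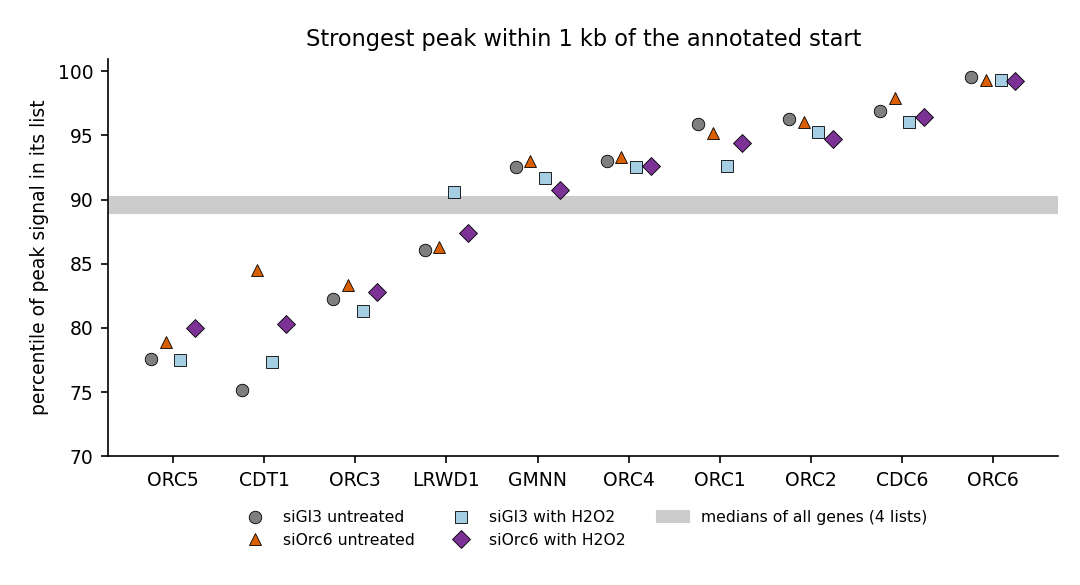
Percentile of peak signal (vertical axis, drawn from 70) of the strongest peak within 1 kb of the annotated start of each gene; 1 symbol per peak list, and the grey band spans the medians of all genes in the 4 lists. ORC6 stands above 99 in every list, while ORC5, CDT1 and ORC3 lie below the band in every list.

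ORC6, the gene targeted by the siRNA, had the strongest start of the 10. Its peak stood at the 99.6 percentile in untreated siGl3, 99.3 in untreated siOrc6, 99.4 in siGl3 with H2O2 and 99.3 in siOrc6 with H2O2. Among all peaks of the 4 lists it ranked 509th, 722nd, 666th and 705th from the top. The peak is open DNA at the gene and does not check the knockdown, since an siRNA acts on the mRNA. It was 1987, 2161, 1924 and 1785 bp wide in the same order. The siOrc6 peak was the wider one without H2O2 and the narrower one with it, with no replicate to judge either. The start of VPS35, which encodes a part of the retromer sorting complex, lies 481 bp away on the opposite strand under the same peak, so the peak belongs to both genes. The ORC6 window held 1 other region, a weak one of 228 bp inside VPS35, at percentiles between 36.9 and 41.3.

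Of the other ORC subunits, ORC1, ORC2 and ORC4 ranked above ORC3 and ORC5 by peak signal. ORC1, the largest subunit and an ATPase, had its peak over the start at 52404423 on chromosome 1 at percentiles of 95.9 (untreated siGl3), 95.2 (untreated siOrc6), 92.6 (siGl3 with H2O2) and 94.4 (siOrc6 with H2O2). The annotated span of ORC1 reaches on to 52409503, and measured from that end there was no peak within 1 kb, so that 9 of the 10 genes would then have had an open start. ORC2, which binds ORC3 within the complex, ranged from 94.8 to 96.3, and ORC4, another ATPase subunit, from 92.5 to 93.3. ORC3 ranged from 81.3 to 83.4, at widths between 764 and 788 bp. ORC5 ranged from 77.5 to 80.0, at widths between 539 and 851 bp, the narrowest of the 10 in every list but untreated siGl3, where ORC3 was narrower. Both lie below the median of all open starts in all 4 lists by peak signal. Their place under ORC4 did not hold by signal per base, where ORC3 stood at the 85.2, 90.4, 81.9 and 89.7 percentiles in the order of the lists above and ORC4 at 80.1, 84.0, 76.8 and 76.5. ORC5 was also above ORC4 by that measure with H2O2, at 90.9 and 92.3. By −log10 p-value ORC3 was above ORC4 in every list but siGl3 with H2O2.

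Among the loading factors, CDC6 ranked high and CDT1 low. CDC6 encodes an ATPase that works with ORC, and its start peak stood at 96.9 in untreated siGl3, 97.9 in untreated siOrc6, 96.0 in siGl3 with H2O2 and 96.4 in siOrc6 with H2O2. Its width was 1452 and 1436 bp in the siGl3 lists, and 1727 and 1725 bp in the siOrc6 lists. The difference of widths was on the side inside the gene, where the siOrc6 peaks ended at 40289024 in both treatments and the siGl3 peaks at 40288732 and 40288751. CDT1 had 2 peaks within 1 kb of its start in every list, and the stronger one stood at 75.2 in untreated siGl3 and 84.5 in untreated siOrc6. With H2O2 these were 77.3 and 80.3. The spread over the 4 lists, 9.33 percentile points, was the widest of the 10 genes; for the others it lay between 0.278 (ORC6) and 4.54 (LRWD1). By the authors' −log10 p-value, CDT1 was lower still, at the 55.8, 72.4, 54.8 and 57.4 percentiles in the order of the lists above. GMNN ranged from 90.8 to 93.0 and LRWD1 from 86.1 to 90.6.

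The summit of the start peak, the position the caller gave as its highest point, lay close to the start in 9 of the genes. Distances are in bp along the gene's strand, negative before the start. For ORC2, ORC3, ORC5 and ORC6 the summit was between -81 and -38 in every list, for ORC1 and GMNN between -137 and -78, and for CDC6 between -159 and -148. LRWD1 had it inside the gene, at 35 to 42. ORC4 has 2 annotated starts, and its summit lay at 257 and 256 from the nearer one in the untreated lists and at -161 and -155 in the H2O2 lists. CDT1 differed from the rest: its summit lay between -670 and -655 in all 4 lists, outside the stretch printed above. A second peak had its summit inside the gene, at 921 to 925. The start of CDT1 therefore lay near the edge of the first peak, which ended at 88803833 in untreated siGl3, 88803875 in untreated siOrc6 and 88803959 in both H2O2 lists, against a start at 88803789.

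**Figure D2:**
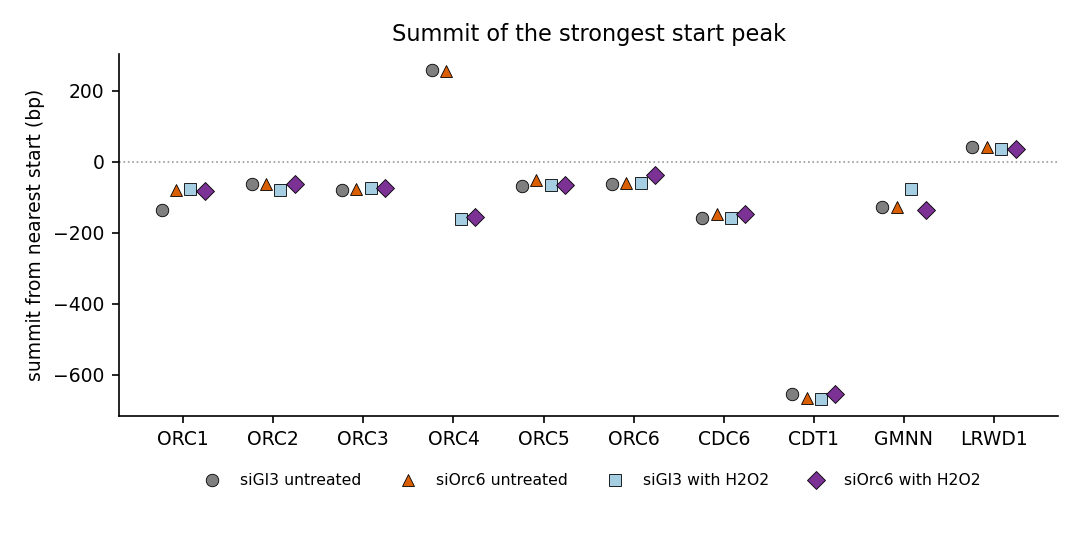
Distance in bp of the summit of the strongest start peak from the nearest annotated start of each gene, negative before the start; 1 symbol per peak list. In CDT1 the 4 symbols sit between -670 and -655, while in the other 9 genes all lie between -161 and 257.

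Shared promoters were frequent among these genes. For 5 of the 10 another protein-coding gene has a known start within 1 kb, against 15.1% of all 15812 genes with a known start. In each of the 5 the other gene runs on the opposite strand and shares the start peak. The pairs are ORC1 with PRPF38A at 179 bp, ORC3 with RARS2 at 148 bp, ORC4 with MBD5 at 274 bp, ORC6 with VPS35 at 481 bp and LRWD1 with ALKBH4 at 121 bp. PRPF38A encodes a splicing factor, RARS2 a mitochondrial arginyl-tRNA synthetase and ALKBH4 a demethylase. Accessibility there cannot be given for either gene of a pair alone.

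Beyond the starts the windows differed widely. ORC3, ORC4 and GMNN had their start peak and no other in any list, over windows of 128, 131 and 51.2 kb. ORC1 and ORC6 had 2 peaks per list and ORC2 had 6. The windows of CDT1, CDC6 and LRWD1 were crowded, with 8 to 10, 7 to 10 and 5 to 7 peaks. The median over the 10 genes was 2.5 merged regions and over all protein-coding genes 5, at median gene lengths of 26727 and 24170.5 bp. In total the windows held 43 peaks in untreated siGl3, 40 in untreated siOrc6, 41 in siGl3 with H2O2 and 36 in siOrc6 with H2O2, and covered 47905, 49336, 47358 and 48002 bp. Most of the difference in number comes from CDC6, CDT1 and LRWD1, as the counts for ORC1 to ORC4, ORC6 and GMNN were the same in every list.

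**Figure D3:**
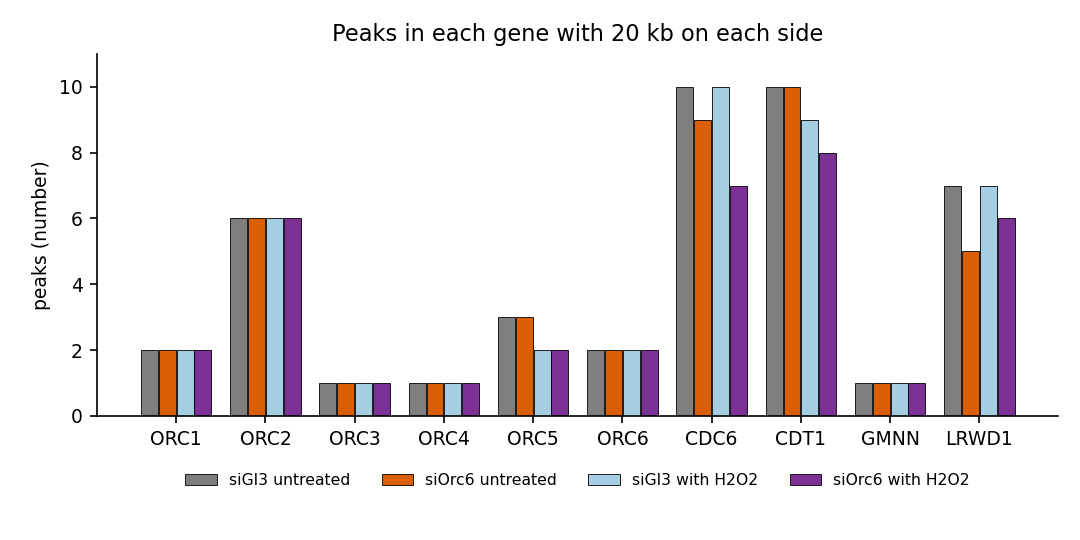
Number of peaks in each gene with 20 kb on each side (vertical axis), 1 bar per peak list. Bars of ORC1, ORC2, ORC3, ORC4, ORC6 and GMNN are level across the lists; those of CDC6 run from 7 to 10 and those of CDT1 from 8 to 10.

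Of the 43 merged regions, 34 (79.1%) had a peak in all 4 lists, against 62.1% of all merged regions. All 11 regions at the genes' own starts were among them. Of 8 regions elsewhere in the genes 5 were in all 4 lists, and of 24 in the flanks 18. The flanks hold other genes, and 4 of these 24 regions lay within 1 kb of the known start of another gene. These genes were CC2D1B beside ORC1, NIF3L1 beside ORC2, RARA beside CDC6 and PIEZO1 beside CDT1. Genes without a known start could not be counted here. The region downstream of CDC6 at RARA, which encodes a retinoic acid receptor, was 9000 bp wide after merging and held peaks up to 8950 bp. CDT1 runs into APRT, an enzyme of adenine salvage, and a merged region of 5028 bp lay over the end of CDT1 and the start of APRT. Its strongest peak stood at percentiles between 99.5 and 99.8. In siGl3 with H2O2 that peak began at 88809859, past the end of CDT1 at 88809258. A separate peak over the end of CDT1 stood at the 3.57 percentile in that list. Inside ORC2, a region of 1178 bp centred at 18841 bp from the start had percentiles between 88.2 and 94.4. It is the strongest region inside a gene of the 10 that is neither at its start nor at another gene's.

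The 9 regions absent from at least 1 list were weak, with a median percentile of 24.5 over their 17 peaks (range 2.17 to 64.8), and none lay at a start. Of these, 8 lay in the windows of CDC6, CDT1 and LRWD1. The ninth, of 268 bp near the far end of ORC5, had a peak in both untreated lists (24.5 and 35.3 percentiles) and none with H2O2. In the LRWD1 window, 2 regions inside ORAI2 (a calcium channel subunit) were listed in siGl3 with and without H2O2 and missing from untreated siOrc6. The one farther from LRWD1 was also missing from siOrc6 with H2O2, and the nearer one stood at the 3.91 percentile there.

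Without H2O2, the authors' comparison of siOrc6 with siGl3 addressed where ORC6 depletion altered accessibility. It listed regions in 2 of the 10 windows, and 1 gene itself, CDT1, was overlapped. In the CDT1 window 2 regions were listed as higher in siOrc6, and in the CDC6 window 1 as higher and 1 as lower. ORC1 to ORC6, GMNN and LRWD1 had no listed region anywhere in their windows, in any of the authors' 4 lists. A region listed as higher overlapped the windows of 2 of 10 genes, where 27.2% of all protein-coding genes with a peak in the window had one. For regions listed as lower it was 1 of 10 against 19.6%. These counts are near or below the background. No changed region of any list was found in 8 of the 10 windows, and in 61.8% of the windows of all 19974 genes. That last share, unlike the 2 before it, includes windows without a peak, while all 10 windows here held peaks.

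At an annotated start, 1 gene of the 10, CDT1, lay within 1 kb of a region higher in siOrc6 without H2O2, against 6.5% of all 15812 genes. None lay at a lower one, where 0.468% of all genes did. The CDT1 region ran from 88802558 to 88806496 on chromosome 16, from -1231 to 2707 bp relative to the start. It covered 2708 of the 5470 bp of the gene and all of the CDT1 stretch printed above. At 3939 bp it was wider than 99.4% of the 7517 higher regions, whose median width was 648 bp. Beneath it, untreated siGl3 had 2 peaks and untreated siOrc6 had 3. The 2 shared ones stood at 75.2 and 71.1 percentiles in siGl3 and at 84.5 and 80.2 in siOrc6. The third, of 379 bp with its summit 2423 bp inside the gene, was present in untreated siOrc6 alone, at the 20.2 percentile. The other higher region in this window, of 663 bp (88790451 to 88791113), had its nearer edge at -12676 bp from the start of CDT1 and lay 5231 bp from the start of PIEZO1, a mechanically gated channel. Its peak stood at the 20.6 percentile with a width of 229 bp in untreated siGl3, and at 48.5 with 662 bp in untreated siOrc6. The next region towards CDT1, centred at -11483 bp, was not listed as changed; its peak stood at 78.9 in untreated siGl3 and 67.8 in untreated siOrc6.

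**Figure D4:**
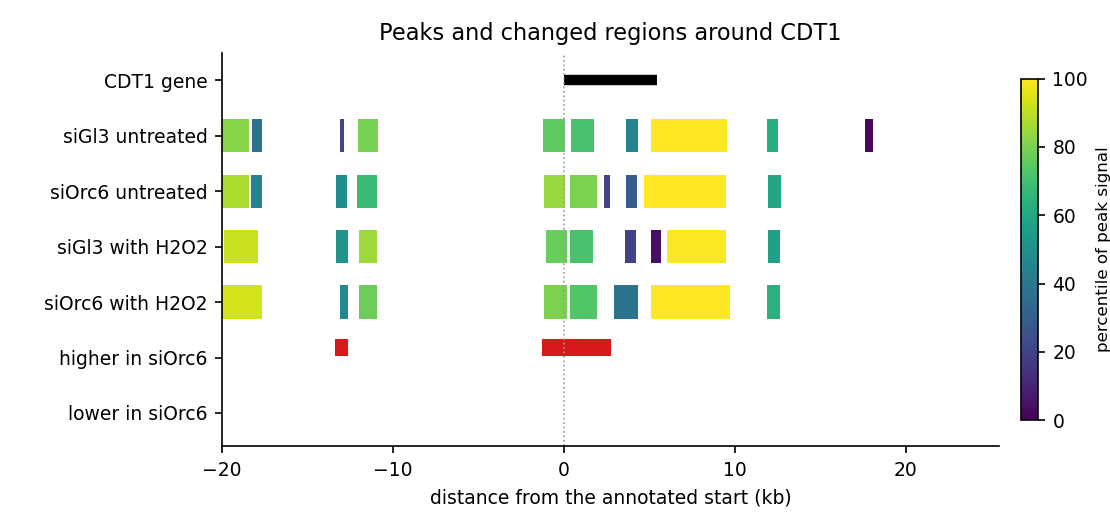
Peaks around CDT1 by distance in kb from its annotated start (dotted line), 1 row per list, coloured by percentile of peak signal; filled red bars are regions the authors listed as higher in siOrc6 without H2O2. The wider red bar spans the start and the first part of the gene, where untreated siOrc6 has 3 peaks and the other lists have 2.

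At CDC6 neither listed region touched the gene. Both lay inside WIPF2, the neighbouring gene of an actin regulator. The higher region, of 362 bp (40281740 to 40282101, chromosome 17), had its nearer edge at -5778 bp from the start of CDC6, with percentiles of 43.8 in untreated siGl3 and 57.1 in untreated siOrc6. The lower one, of 613 bp (40268067 to 40268679), had its nearer edge at -19200 bp, at the border of the window. Its peak stood at the 64.8 percentile in untreated siGl3 and at 31.4 in untreated siOrc6. The 2 regions, of opposite direction, lie in the same neighbouring gene.

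**Figure D5:**
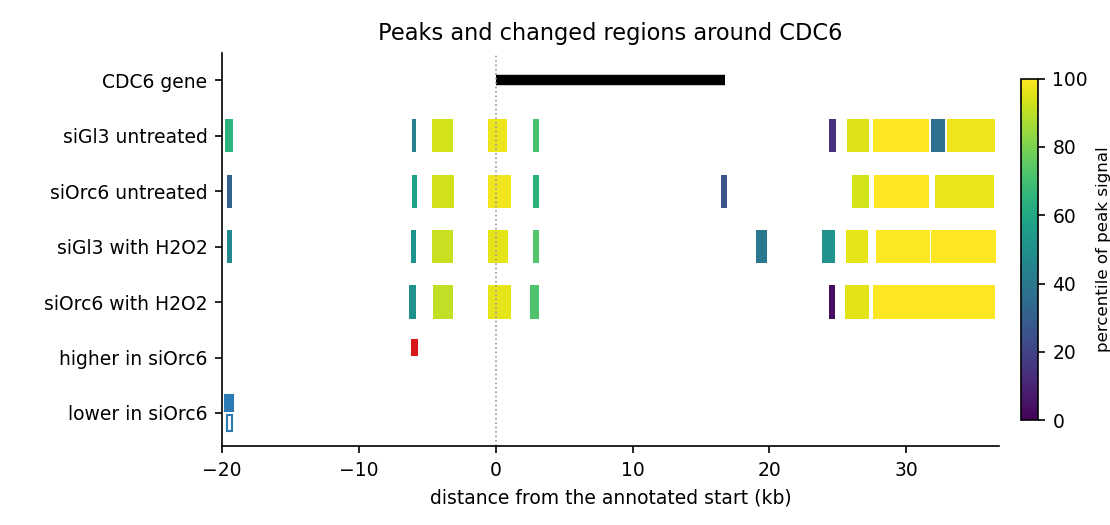
Peaks around CDC6 by distance in kb from its annotated start (dotted line), 1 row per list, coloured by percentile of peak signal; the red bar is a region the authors listed as higher in siOrc6 without H2O2, and blue bars are regions listed as lower (filled without, open with H2O2). All listed regions lie before the gene, and the 2 blue bars coincide.

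Counted by peak, 5 of 44 merged peaks of both untreated conditions in the windows overlapped a higher region (11.4%, background 7.36%). Of these 5, 3 lie under the single wide region at CDT1. Of the 44, 1 overlapped a lower region, 2.27% against 4.99%.

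With H2O2, the same comparison listed 1 region in the 10 windows. No window had a region higher in siOrc6, against 3.66% of genes, and 1 of 10 had a lower one, against 5.55%. It is the region inside WIPF2 before CDC6, here of 395 bp (40268211 to 40268605), which was also listed as lower without H2O2. With H2O2 it had a peak in siGl3 at the 47.2 percentile and none in siOrc6. At starts the counts were 0 of 10 in both directions, where 0.209% of all genes lay at a higher and 0.133% at a lower region. By peak, 0 of 39 overlapped a higher region (1.13% in all) and 1 of 39 a lower one (1.41% in all). The CDT1 regions listed without H2O2 were not listed with it; a difference between the 2 comparisons was not tested. Under H2O2 the CDT1 start peak stood at 77.3 in siGl3 and 80.3 in siOrc6, and the peak of the upstream region at 52.2 and 47.1.

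For H2O2 against no treatment no list of changed regions was used here, so the peak lists themselves were set side by side. In siGl3, 38 regions of the windows had a peak in both treatments, 2 had one in untreated cells alone and 1 under H2O2 alone. In siOrc6 these numbers were 34, 4 and 2. Over all regions, the siGl3 list without H2O2 had 16.99% and the siOrc6 list 16.95% of its regions missing with H2O2, against 5.0% and 10.5% in the windows. Of the regions listed with H2O2, 8.0% in siGl3 and 7.03% in siOrc6 were missing without it over all regions, against 2.56% and 5.56% in the windows.

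The other genes of licensing and origin firing gave the same picture of open starts. The list held 39 genes: MCM subunits, the CMG helicase parts CDC45 and GINS, the kinases CDC7 and CDK2 with their partners, and the regulators of CDT1, such as DTL and SKP2. For 31 of them a start was known, and all 31 had a start peak in every list, against 68.3% of all genes with a known start. Their median percentiles lay between 94.6 and 95.5, and those of all genes with such a peak between 88.97 and 90.2. For the other 8, a peak within 1 kb of either end was present in every list, a looser rule for which no share over all genes is given here. Among the MCM helicase genes with a known start, MCM7 stood between 99.5 and 99.6, MCM3 between 96.4 and 97.8, MCM2 between 93.97 and 95.5 and MCM6 between 87.6 and 92.1.

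In 27 of the 39 windows no region was listed as changed. The same held for 61.8% of all genes' windows, those without a peak included. Without H2O2, 7 of 39 (17.9%) had a higher region and 6 of 39 (15.4%) a lower one, both under the backgrounds of 27.2% and 19.6% given above. With H2O2 there were 0 of 39 in both directions, where the shares over all genes were 3.66% for higher and 5.55% for lower regions. The higher ones by number and length were CCNF, whose product is a cyclin that helps degrade CDC6, KAT7, a histone acetyltransferase that binds ORC, and CCNA2, the S-phase cyclin A (2 regions each). Then came DBF4B, GINS1, MCM7 and MCM2 (1 each). Of these, CCNA2, DBF4B and GINS1 had a higher region within 1 kb of a start, 3 of 31 genes with a known start (9.68%, against 6.5% of all genes). The lower ones were MCM7, DTL (the adaptor that targets CDT1 for degradation), MCM8, CCNE1, TOPBP1 and RIF1. In MCM7 a higher region of 671 bp, 5036 bp outside the gene, stood beside a lower one of 1502 bp that overlapped the gene. KAT7 and RIF1 had their widest regions 15.6 and 17.3 kb outside the gene, and the CCNE1 region lay 11.5 kb outside. The lower regions of DTL and MCM8 lay 4491 and 4339 bp outside these genes, at INTS7 and TRMT6. The higher region of MCM2 lay 6458 bp outside it, at PODXL2.

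The promoters themselves (250 bases before to 50 after each start) were of ordinary base composition. The 12 promoters of the 10 genes had a median GC content of 62.8% and 25 CpG, against 62.3% and 21 over 22132 promoters. CDT1 and LRWD1 were the richest in GC, both at 74.3%, with 47 and 45 CpG. The first start of ORC4 had 4 CpG, the fewest. The 8-letter E2F patterns were found in 4 of 12 promoters (33.3%, against 4.11% of all), those of CDT1, CDC6, ORC3 and the second start of GMNN. With the 7-letter patterns ORC1 was added, 5 of 12 against 11.5%. The CDT1 match lies at -35 to -28, with a 7-letter match next to it at -23 to -17, and the CDC6 match at 8 to 15, just past the printed stretch. CCAAT was found in 6 of 12 (34.6% of all), with 3 matches in CDC6. NRF1 was found in CDT1 and ORC6, 2 of 12 against 3.74%. SP1 (GGGCGG) was found in 8 of 12 against 56.3%, and ETS (CCGGAAG) in 2 of 12 against 12.8%. The patterns for CHR (TTTGAA or TTCGAA), YY1 (AAGATGGC), CRE (TGACGTCA) and AP-1 (TGANTCA) had no match, where 13.7%, 3.54%, 2.26% and 6.15% of all promoters had one. The antioxidant response element (TGACNNNGC) was found in 2, GMNN and ORC3, against 13.8%. A match is a run of letters and not a shown site, and these genes are in part textbook E2F targets, so that the E2F count is no independent finding.

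By the summed difference in percentile over the 4 lists, the genes whose start was most like that of ORC6 were VPS35, SFXN5, SLAIN2, C1GALT1 and TOMM40. VPS35 shares the peak and so has a difference of 0. The other 4 differed by 0.143 to 0.173 percentile points in all. Of 10805 genes with a start peak in every list, 286 lay within 1 point of ORC6, so these 5 are close neighbours among many.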

How the data were processed

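ATAC-seq was made from 8 libraries, 2 for each of 4 conditions. Per the submitters' processing notes the tools were Genrich, edgeR, Bowtie2, SAMtools, Picard, deepTools and bcl2fastq 2.20, and the build was hg38; their roles and thresholds are not given in the sources used here. The authors deposited 1 peak list per condition, whose name carries both replicate numbers, and 4 lists of regions higher or lower in siOrc6, with positions and no fold or p-value; the direction is that in the lists' names.

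Each deposited peak list gives a peak signal, a −log10 p-value and a display score (the q-values were not used). In every peak of the deposited lists the score equalled the signal per base times 1000, rounded and held at 1000. A score held at 1000 does not show the relation. At equal signal per base a wider peak has a higher signal. The lowest deposited signal lay just above 200.0 in each list.

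Percentiles are ranks of the signal over all sequences of a list. Gene spans (RefSeq, GRCh38.p14, as hg38) were widened by 20 kb, and overlaps of at least 1 bp counted. Starts came from a RefSeq promoter table with 15812 of 19974 genes; a gene can be absent from it. Backgrounds are the same count over all genes or regions. No test was made, since a condition has 1 list. Region starts in the deposited lists may differ from peak starts by 1 bp. Overlap counts were checked on planted intervals. Tools were pandas 2.3.3, numpy 2.4.6 and matplotlib 3.10.9 under Python 3.11.15.

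All 10 genes were named by rule, with genes of the licensing list that have a changed region (up to 6 per list) and MCM2 to MCM7; neighbours were named at starts or changed regions. Other neighbours and TWIST1, TGFBI, CD3E, EPCAM and KRT8 were named after their values were seen. Genes and lists were chosen with earlier results of these data known. Alternatives were other windows, overlaps, merging, rankings and stricter peaks.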

Additional observations from a re-analysis of the deposited data

How the results depend on the processing

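Of 79 values under alternatives, 55 stayed close to the reported ones and 24 moved. A count was called close within a set factor, and a median percentile where it moved by less than 1 SD over the 10 genes. Counts of 0 that remained 0 are among the 55. CDT1 had a higher region without H2O2 in the gene alone, and so necessarily in each wider window (5, 20 and 50 kb). No gene of the 10 had a higher region with H2O2 within 50 kb, against 5.69% of all genes with a peak there. None in the narrower windows follows necessarily. With windows of 5 kb, higher regions without H2O2 were at 1 gene of 10 (CDT1), against 20.3% of all genes with a peak there. Lower ones were at 0 without and 0 with H2O2, against 13.7% and 4.06%. With the gene alone these were again 1, 0 and 0, against 18.3%, 12.4% and 3.84%. With 50 kb, lower regions without H2O2 were at 2 genes (CDT1 and CDC6), against 29.2%. In the licensing and firing list of 39, higher and lower regions without H2O2 were at 13 and 11 genes with 50 kb. The shares over all genes with a peak there were 39.3% and 29.2%. In the gene alone they were at 4 and 2, against 18.3% and 12.4%. Regions in all 4 lists numbered 19 with 5 kb and 55 with 50 kb (82.6% and 67.1% of regions there). The share of all merged regions was 62.1%, so the 50 kb value lay nearer to it than the reported 79.1%. With regions merged up to 500 bp apart the share was 78.9% against 64.6%, and among the upper 50% of peaks 74.2% against 65.5%. Peaks in untreated siGl3, untreated siOrc6, siGl3 with H2O2 and siOrc6 with H2O2 numbered 20, 22, 21 and 19 with 5 kb and 77, 65, 74 and 68 with 50 kb; among the upper 50% of peaks untreated siGl3 had 26. A wider window holds at least as many peaks as a narrower one, and a list cut to its upper 50% at most as many as the whole. The order of the lists changed with the window. Untreated siOrc6 had the most peaks with 5 kb and the fewest with 50 kb, and the reason was not tested. Ranked by signal per base, the median start peak in untreated siGl3 stood at the 83.9 percentile, against 92.8. In the 250 bases before the start alone the antioxidant response element was in 1 promoter. Measured from the end of the gene span instead of the table's start, chosen after seeing the data, 9 of 10 genes had an open start. No paired analysis was possible because each condition has 1 list for both replicates, and leaving out a replicate could not be run for the same reason. Depth is unknown, so a weak peak absent from a list may lie just under its lowest listed signal.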
